A study of Rattus norvegicus with 5 samples.

Results

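Igf1 and Irs2 are genes of the insulin-like growth factor (IGF) axis, one for a secreted ligand and the other for a protein inside the cell that passes the receptor's signal on. They were taken as the probe sets whose gene symbol in the platform annotation is Igf1 or Irs2, which gave 2 probe sets, 1 for each gene, of 10141 measured. The other measured symbols that start with Igf, 8 probe sets, are given as context. In rat tendon stem/progenitor cells (rTSPCs) at passage 12 (P12), Igf1 was 22.8-fold higher and Irs2 was 2.60-fold lower in POG-treated than in DMSO-treated cells.

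Both groups were rTSPCs in serial passage, a culture model of replicative senescence. The POG group, 2 arrays, received 20 µM prim-O-glucosylcimifugin (POG), a plant-derived chromone glycoside, in the medium at each passage from 3 to 12. The DMSO group, 3 arrays, received an equal amount of the solvent dimethyl sulfoxide over the same passages. Cells of this model came from rats aged 3 months, and no untreated cells and no earlier passage were analysed here. The labels call the arrays biological replicates without saying whether each came from a separate culture or animal, and any p-value therefore covers no more than the variation among these 5 arrays, part of which can be technical. Each array measured RNA from a whole culture, in which fewer cells that express a gene and less RNA per cell cannot be told apart.

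IGF-I is a secreted peptide made in the liver under growth hormone and also locally in many tissues, tendon included, where it is known for stimulating cell proliferation and collagen synthesis. It binds the IGF-1 receptor, a tyrosine kinase, and its access to the receptor is set by IGF-binding proteins and by the proteases that cleave them. The activated receptor, like the insulin receptor, phosphorylates the docking proteins IRS1 and IRS2. These recruit phosphoinositide 3-kinase (PI3K), which leads to AKT and mTOR complex 1, and active AKT holds the FoxO transcription factors out of the nucleus. In liver and other tissues, the IRS2 gene is itself a known target of FoxO factors.

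The values are log2 signals after robust multi-array average (RMA), in which 1 unit is a doubling of signal. They ranged from 2.98 to 19.47, and the array medians were 8.48 to 8.52 in the POG arrays and 8.36 to 8.45 in the DMSO arrays. Probe sets whose group mean did not exceed 6.17, the lower quartile over all values, are called dim and cannot be separated from background here, because no detection calls were used. The groups differed broadly. With limma's moderated test and an adjusted p threshold of 0.05 over all probe sets, 46.3% of them changed. Those that rose in POG-treated cells made up 26.7% of all probe sets and those that fell 19.6%, and the 2 groups did not overlap at 66.8%. The SD of the differences between 2 arrays was 0.32 to 0.37 within a group and 0.99 to 1.04 between groups. The median difference over all probe sets was 0.11, and centring each array on its median moved this by 0.087.

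Igf1, the ligand, had signals of 12.07 and 12.31 in the POG arrays, against 7.52, 7.75 and 7.76 in the DMSO arrays. Both POG arrays lay far above all 3 DMSO arrays, and the gap between the nearest arrays of the groups, 4.31, was many times the range of 0.24 within either group. The means were 12.19 ± 0.17 in POG-treated cells (SD, n = 2) and 7.68 ± 0.14 in DMSO-treated cells (SD, n = 3). The difference was 4.51 ± 0.18 on the log2 scale (SE), with a 95% interval of 4.12 to 4.91 and a limma adjusted p of 1.01e-07. As a fold the interval ran from 17.3 to 30.1. The 6 pairs of a POG and a DMSO array gave differences between 4.31 and 4.79, so no single array carried the rise. In DMSO-treated cells the Igf1 mean was 1.51 above the lower quartile, so the gene was not dim in either group. An exact two-sided permutation test over the 10 assignments of arrays to groups gave p = 0.1, the smallest it allows.

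**Figure D1:**
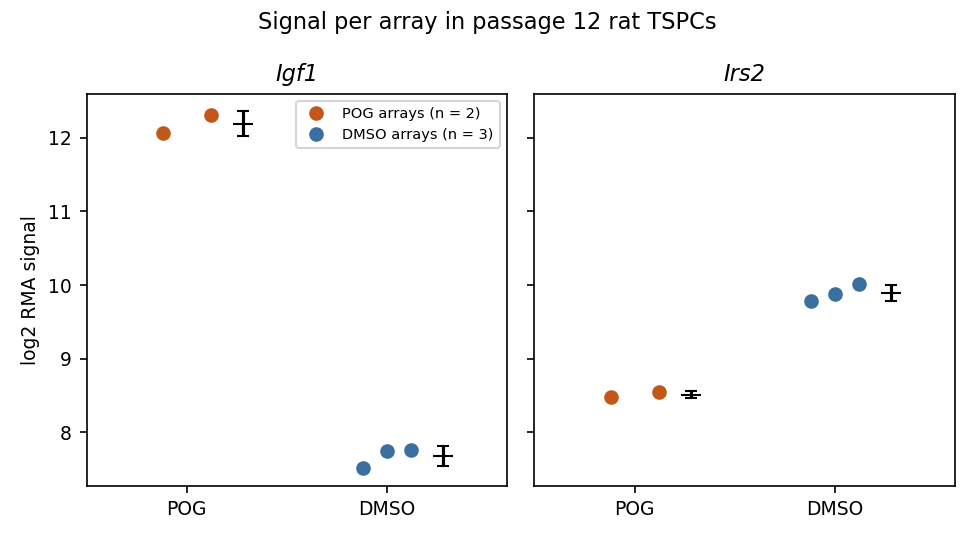
Log2 RMA signal of Igf1 (left) and Irs2 (right) in each array of P12 rTSPCs, with the POG group left of the DMSO group; points are arrays and the dash with bars is the group mean with its SD (n = 2 and n = 3). The POG arrays sit at 12.07 and 12.31 for Igf1, above every DMSO array, and at 8.48 and 8.55 for Irs2, below every DMSO array. Levels of the 2 probe sets are not compared with each other.

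Among all probe sets the Igf1 rise ranked 23rd. Of the 22 larger rises, 19 were of probe sets with a gene symbol. The median rise over the 2707 probe sets that passed the test upward was 0.87, against 4.51 for Igf1. Falls included, Igf1 ranked 45th by the size of its difference.

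Irs2, the docking protein, changed in the opposite direction. Its signals were 8.48 and 8.55 in the POG arrays, against 9.79, 9.88 and 10.01 in the DMSO arrays. Both POG arrays were lower than all 3 DMSO arrays, with a gap of 1.24 between the groups and ranges of 0.07 within the POG group and 0.22 within the DMSO group. The means were 8.52 ± 0.049 in POG-treated cells (SD, n = 2) and 9.89 ± 0.11 in DMSO-treated cells (SD, n = 3), neither of them dim. Irs2 fell by 1.38 ± 0.17 on the log2 scale (SE), with a 95% interval of the difference of −1.75 to −1.0 and a limma adjusted p of 0.000149. The interval of the fall as a fold was 2.0 to 3.37. Over the 6 array pairs the differences lay between −1.53 and −1.24, and the exact two-sided permutation p was again 0.1, its smallest value.

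The Irs2 fall was less extreme among all probe sets than the Igf1 rise. It ranked 532nd among falls, and the 531 larger falls included 417 with a gene symbol. Its difference of −1.38 compares with a median of −0.94 over the 1987 probe sets that passed the test downward.

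**Figure D2:**
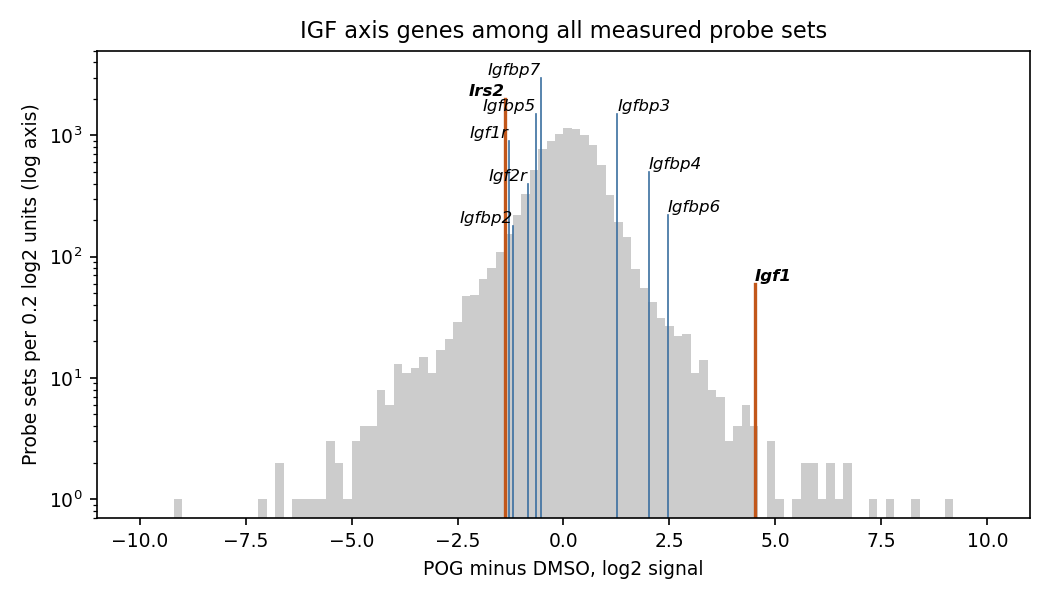
Histogram of POG minus DMSO differences in log2 signal over all 10141 probe sets (grey, log count axis, bins of 0.2), with lines at Igf1 and Irs2 (orange) and at the 8 other symbols that start with Igf (blue). Igf1 at 4.51 stands in the far upper tail, while Irs2 at −1.38 lies inside the lower flank with Igf1r at −1.29 and Igfbp2 at −1.20.

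Irs1, the docking protein most closely related to IRS2, did not pass the test. Irs1 signals were 9.20 and 8.94 in the POG arrays, against 9.06, 9.21 and 8.82 in the DMSO arrays, and the groups overlapped. The difference was 0.04 ± 0.19 (SE), with a 95% interval of −0.38 to 0.46 and a limma adjusted p of 0.875, and its sign turned with quantile normalization and with median centring. The signal of Irs2 minus that of Irs1, taken within each array, was −0.72 and −0.39 in the POG arrays, against 0.73, 0.67 and 1.19 in the DMSO arrays. This within-array difference, which sets the 2 probe sets only against themselves across arrays, fell by 1.42 on the log2 scale in POG-treated cells (exact two-sided permutation p = 0.1, the smallest possible). The comparison was chosen after the values were seen. Irs2 alone separated the groups by 1.24, while all Irs1 signals lay between 8.82 and 9.21. The p of this within-array difference was therefore fixed in advance and adds nothing to the Irs2 result. Irs3, a further docking protein of rodents, had a difference of 0.13 (limma adjusted p = 0.556) at signals of 3.34 to 3.65, in the range that cannot be separated from background.

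Of the ligand genes listed beside Igf1, Igf2, Ins1 and Ins2 had no named probe set here, so Igf1 was the single ligand measured. On the receptor side, Igf1r, which encodes the kinase that IGF-I binds, moved opposite to its ligand. Its signals were 12.66 and 12.39 in the POG arrays, against 13.73, 13.92 and 13.80 in the DMSO arrays. Both POG arrays lay below all DMSO arrays, and Igf1r fell by 1.29 ± 0.18 on the log2 scale (SE, limma adjusted p = 0.000294), close in size to the fall of Irs2. Igf2r, the receptor that clears IGF-II and carries lysosomal enzymes, had signals of 13.08 and 12.43 in the POG arrays, against 13.56, 13.57 and 13.68 in the DMSO arrays, a difference of −0.85 ± 0.21 (limma adjusted p = 0.00929). This rested on POG replicate 2, without which it was −0.52 (adjusted p = 0.102). The insulin receptor, Insr, had overlapping signals of 8.11 and 7.98 in the POG arrays, against 8.41, 8.29 and 7.91 in the DMSO arrays, and its difference of −0.16 had a 95% interval of −0.60 to 0.28 (limma adjusted p = 0.531). The within-array difference of Igf1r minus Insr was also chosen after the values were seen. It was 4.55 and 4.41 in the POG arrays, against 5.32, 5.63 and 5.89 in the DMSO arrays. The fall was 1.13 (exact two-sided permutation p = 0.1, the smallest possible). Because Igf1r alone separated the groups by more than the Insr signals varied, this p too was fixed in advance.

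All 6 measured IGF-binding proteins passed the test, 3 higher and 3 lower, where 26.7% of all probe sets were higher and 19.6% lower. Igfbp4, whose protein mostly holds IGF away from its receptor, changed with Igf1. Its signals were 11.26 and 11.58 in the POG arrays, against 9.29, 9.57 and 9.37 in the DMSO arrays, a rise of 2.01 ± 0.18 (limma adjusted p = 2.01e-05). Igfbp6, whose protein prefers IGF-II, had 8.21 and 8.68 in the POG arrays, against 5.89, 5.75 and 6.33 in the DMSO arrays (limma adjusted p = 2.05e-05). Igfbp3, the main carrier of IGF-I in blood, had 7.06 and 6.91 in the POG arrays, against 5.74, 5.86 and 5.55 in the DMSO arrays (limma adjusted p = 0.000346). The DMSO means of both were dim, so their differences of 2.46 and 1.27 depend on levels near background.

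The 3 binding proteins that fell did so by less than Igfbp4 or Igfbp6 rose. Igfbp2 had 5.73 and 5.62 in the POG arrays, where it was dim, against 6.79, 6.90 and 6.94 in the DMSO arrays (difference −1.20, limma adjusted p = 0.000332). Igfbp5 had 5.91 and 6.52 in the POG arrays, against 6.77, 7.10 and 6.71 in the DMSO arrays (difference −0.65, limma adjusted p = 0.0373). Its call was lost without POG replicate 1 (−0.34, adjusted p = 0.310) and without DMSO replicate 2 (−0.53, adjusted p = 0.117). Igfbp7, which binds IGF only weakly, had 17.63 and 17.67 in the POG arrays, against 18.31, 18.15 and 18.10 in the DMSO arrays (difference −0.54, limma adjusted p = 0.0257). The Igfbp7 call was lost with quantile normalization (−0.37, adjusted p = 0.0916) and without any one of POG replicate 1, POG replicate 2, DMSO replicate 1 or DMSO replicate 2 (adjusted p 0.108, 0.0930, 0.0573 and 0.0546). Counting receptors and binding proteins together, 3 of the 8 other symbols that start with Igf were higher and 5 lower, with a median difference of −0.59. Over all probe sets 26.7% were higher and 19.6% lower, and the median difference was 0.11.

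**Figure D3:**
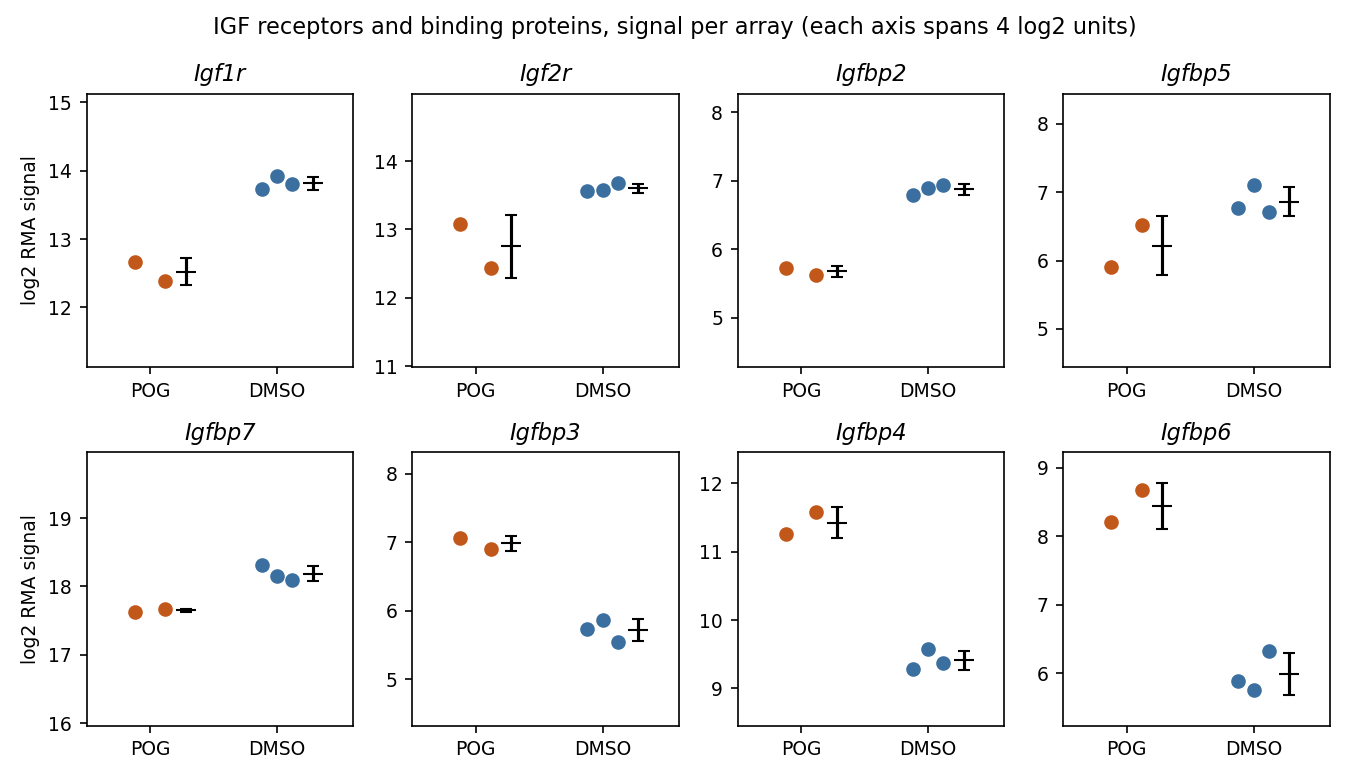
Log2 RMA signal per array of the 8 other measured symbols that start with Igf, POG left of DMSO in each panel; points are arrays, the dash with bars is the mean with its SD (n = 2 and n = 3), and each vertical axis spans 4 log2 units. Igf1r, Igf2r, Igfbp2, Igfbp5 and Igfbp7 are lower in the POG arrays, and Igfbp3, Igfbp4 and Igfbp6 higher; the Igf2r, Igfbp5 and Igfbp7 calls depended on single arrays.

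Of the proteases of the binding proteins and the inhibitors of those proteases, 4 of 8 listed genes were measured. All 4 were higher in POG-treated cells, as were 26.7% of all probe sets, and their median difference was 2.04. Stc1, a stanniocalcin that in human and mouse inhibits the pappalysin protease that cleaves IGFBP-4, had 13.58 and 12.92 in the POG arrays, against 7.33, 6.80 and 6.74 in the DMSO arrays. Its difference of 6.29 ± 0.25 was larger than that of Igf1 (limma adjusted p = 1.01e-07). Mmp3, a matrix metalloproteinase that can cleave IGFBP-3, rose by 3.06 (limma adjusted p = 6.36e-07). Stc2, the second stanniocalcin, rose by 1.02 with a dim DMSO mean (limma adjusted p = 0.00111). Htra1, a secreted serine protease, differed by 0.59 (limma adjusted p = 0.0150), a call lost without POG replicate 1 (adjusted p = 0.0768) or POG replicate 2 (adjusted p = 0.0638).

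Irs2 belongs to a list of docking and adaptor proteins of which 9 of 15 were measured. Of these, 4 were lower and 5 did not pass the test, with a median difference of 0.04. The share called, 44.4%, was near the 46.3% over all probe sets. Beside Irs2, the lower ones were Sh2b2 (−1.27), an adaptor of the insulin receptor, Gab2 (−0.91), a scaffold that binds PI3K, and Dok1 (−0.91), a docking protein that dampens tyrosine kinase signals (limma adjusted p of 0.00103, 0.00575 and 0.00220). Of these 4 falls Irs2 had the largest. Dok1 was dim in both groups and Sh2b2 in POG-treated cells, and the Gab2 call was lost without POG replicate 2 (−0.75, adjusted p = 0.0668). Shc1, Gab1 and Crkl had differences of 0.32, 0.08 and 0.42 (limma adjusted p of 0.158, 0.777 and 0.0992).

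Downstream of the docking proteins the measured genes changed in both directions. Pik3r1 and Pik3r2, the regulatory PI3K subunits that bind IRS proteins, were higher in POG-treated cells by 0.79 and 1.25 (limma adjusted p of 0.00410 and 0.00165), while the catalytic Pik3cb differed by 0.31 (adjusted p = 0.182). Mtor, the kinase of the mTOR complexes, had no named probe set here. Gsk3b, a kinase that AKT inhibits, differed by −0.59 (limma adjusted p = 0.0306), a call lost without POG replicate 1 (adjusted p = 0.0551), POG replicate 2 (0.197), DMSO replicate 1 (0.0650) or DMSO replicate 2 (0.0913). Of 13 measured genes of the TSC and mTOR list, 3 were higher, 1 was lower and 9 did not pass, so that 30.8% were called beside 46.3% of all probe sets. Of the genes called, 2 kept their call without any one array. Sesn3, a sestrin that restrains mTOR complex 1, rose by 1.34 (limma adjusted p = 0.000157). Rps6, for the ribosomal protein phosphorylated at the end of this branch, rose by 0.98 (limma adjusted p = 0.00154). The Rps6 value is RNA and does not measure that phosphorylation. By western blot, the paper reported less phosphorylated S6 in POG-treated than in DMSO-treated P12 rTSPCs. Mlst8, a subunit of the mTOR complexes, and Rheb, which activates mTOR complex 1, differed by 0.75 and −0.55 (limma adjusted p of 0.0225 and 0.0255), and both calls rested on single arrays. The Mlst8 call was lost without POG replicate 2 (adjusted p = 0.184), DMSO replicate 1 (0.0515) or DMSO replicate 2 (0.0525), and the Rheb call without POG replicate 1 (adjusted p = 0.169), DMSO replicate 2 (0.0594) or DMSO replicate 3 (0.0502) and with the replicate block (0.0607).

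Irs2 is also in the list of FoxO target genes. Of 13 measured members, 8 were higher, 2 were lower and 3 did not pass, with a median difference of 0.95, where 26.7% of all probe sets were higher and 19.6% lower. The lower ones were Irs2 and Txnip, which encodes a thioredoxin-binding protein that limits glucose uptake. Txnip signals were 5.93 and 5.64 in the POG arrays, against 10.32, 10.05 and 9.93 in the DMSO arrays, a difference of −4.32, with a dim POG mean (limma adjusted p = 1.76e-07). Among those that rose were the cell cycle inhibitor Cdkn1b (1.51, with a dim DMSO mean), mitochondrial superoxide dismutase Sod2 (1.48), the stress response gene Gadd45a (1.42) and Sesn3 (limma adjusted p of 0.000117, 0.000123, 0.000734 and 0.000157). The FoxO factors themselves split. Foxo1 had 10.96 and 10.66 in the POG arrays, against 12.39, 12.22 and 11.85 in the DMSO arrays, a fall of 1.34 (limma adjusted p = 0.000656). Foxo3 differed by 0.90 (limma adjusted p = 0.00861), or by 0.72 without POG replicate 2 (limma adjusted p = 0.0898). The part of the FoxO factors in the Irs2 difference was not tested.

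Genes that restrain insulin and IGF signalling changed in both directions. Of 12 measured, 4 were higher, 6 were lower and 2 did not pass, with a median difference of −0.65, beside 26.7% higher and 19.6% lower over all probe sets. Trib1, a pseudokinase, had 6.71 and 6.95 in the POG arrays, against 9.98, 10 and 10.22 in the DMSO arrays (difference −3.24, limma adjusted p = 6.17e-07). Socs2, which curbs growth hormone signalling and Igf1 production in mice, differed by −2.23 (limma adjusted p = 6.22e-06). Socs3, known in mice for directing IRS proteins to degradation, had 8.25 and 7.19 in the POG arrays, against 5.13, 4.61 and 4.93 in the DMSO arrays, where it was dim (limma adjusted p = 4.58e-05). Sirpa, an inhibitory cell surface receptor, rose by 3.78, while the AKT phosphatase Phlpp1 and the ubiquitin ligase Cblb had differences of −1.44 and −1.18 (limma adjusted p of 3.59e-07, 0.000133 and 0.000320).

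The growth hormone branch, which controls Igf1 in liver, had 3 measured genes of 4 listed, and Stat5b had no named probe set. Socs2, which also acts on this branch, is given above with the genes that restrain signalling (−2.23). The part of this branch in the Igf1 difference was not tested. Ghr, the growth hormone receptor, differed by 0.70 (limma adjusted p = 0.0103), or 0.57 without POG replicate 2 (adjusted p = 0.0906). Jak2, the kinase bound to it, differed by −0.50 (limma adjusted p = 0.0395) and lost its call without any one of 4 arrays (POG replicate 1, adjusted p = 0.135, POG replicate 2, 0.135, DMSO replicate 1, 0.0695, and DMSO replicate 3, 0.103). The Jak2 call was also lost with the replicate block (−0.43, adjusted p = 0.123), with quantile normalization (adjusted p = 0.0633) and by the methods' t-test (adjusted p = 0.0787). Stat5a did not pass (0.25, adjusted p = 0.357).

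**Figure D4:**
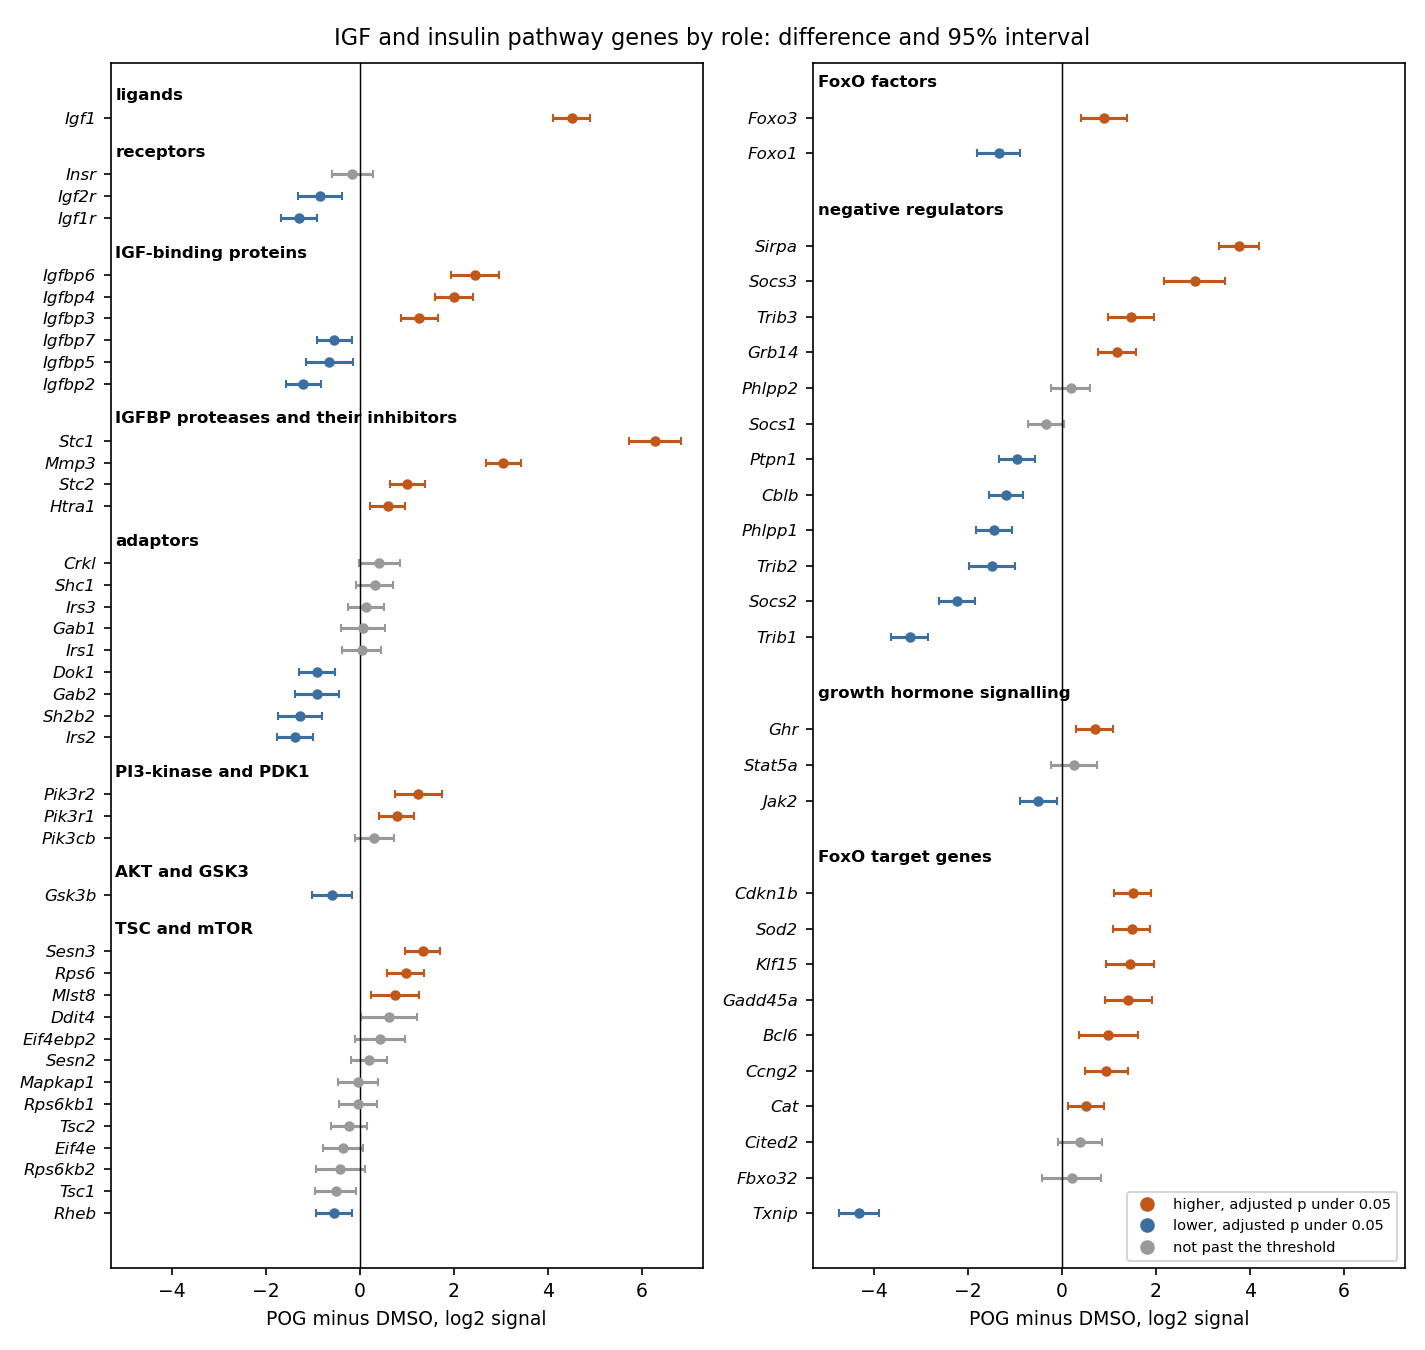
POG minus DMSO differences in log2 signal (points) with their 95% intervals (bars) for the measured IGF and insulin pathway genes, grouped by role and each shown once; orange genes passed the test upward, blue genes passed it downward, and grey genes did not pass. Igf1 at 4.51 and Stc1 at 6.29 are the highest points and Txnip at −4.32 the lowest; Irs2 at −1.38 is the lowest of the adaptors.

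Over the 12 lists together, 67 of 114 symbols were measured, of which 26 were higher, 20 were lower and 21 did not pass the test. Without Igf1 and Irs2, 38.5% of the 65 others were higher and 29.2% lower, beside 26.7% and 19.6% of all probe sets, and their directions were mixed. All probe sets include 2901 with no gene symbol and were not matched to the lists for brightness, so the shares are not strictly alike.

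The genes whose profile over the 5 arrays was nearest to that of Igf1, by the root mean square distance between log2 profiles each centred on its own mean, were Gpm6b (0.122), a neuronal membrane glycoprotein gene, Cxcl12 (0.160), a chemokine of stromal cells, Mt2A (0.190), a metallothionein, Ifitm1 (0.191), an interferon-induced membrane protein, and Tgfbr3 (0.194), the TGF-beta co-receptor betaglycan. Those nearest to Irs2 were Cbx6 (0.0462), a Polycomb protein, Rasa2 (0.0582), a Ras GTPase-activating protein, C9h6orf141 (0.0598), Dusp10 (0.0602), a phosphatase of stress-activated kinases, and Ehbp1l1 (0.0662). With 5 arrays in 2 groups this distance mainly ranks genes by how close their group difference is to that of Igf1 or Irs2.

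Marker genes of cell types were read beside these changes. Over all probe sets 46.3% passed the test, 26.7% higher and 19.6% lower. Of the measured markers, 40% passed in the tendon and progenitor list and 40% in the fat cell list, both near that share. In the smooth muscle and pericyte list 90% passed, and in the leukocyte and macrophage list 100%. Of 12 tendon and progenitor markers, 10 had a probe set, of which 1 was higher, 3 were lower and 6 did not pass the test, with a median difference of −0.33. The one that was higher was Fmod, for the tendon proteoglycan fibromodulin, with means of 16.64 in POG-treated cells and 10.07 in DMSO-treated cells. The lower ones were Nes, which was dim in POG-treated cells, Cd44 and Itgb1. The mean of the list's log2 signals, 12.95 to 13.06 in the POG arrays and 12.71 to 12.89 in the DMSO arrays, thus joins 1 large rise with several falls. Col1a1 and Thy1 did not pass the test. Col1a1 signals, 19.18 to 19.47 over the arrays, included the highest value of the data, and whether they were saturated was not tested. Scx was dim in both groups, and Mkx and Tnmd had no named probe set. Beside the changes of Igf1 and Irs2, all 5 measured of 17 leukocyte and macrophage markers were higher, and the mean of their log2 signals was 6.59 to 7.05 in the POG arrays and 5.0 to 5.43 in the DMSO arrays. Of these, Cd68, Lyz2, Cd53 and Fcer1g had dim DMSO means, and Fcer1g was dim in POG-treated cells too. Ptprc, Csf1r, Adgre1 and Itgam had no named probe set. Of 8 fat cell markers 5 were measured and 2 were higher, Adipoq and Fabp4, both with dim DMSO means. Pparg and Lep, which did not pass, were dim in both groups. The list means were 6.27 to 6.40 in the POG arrays and 5.13 to 5.40 in the DMSO arrays. Of 12 smooth muscle and pericyte markers 10 were measured, and 9 were lower. The list means were 10.53 to 10.79 in the POG arrays and 14.32 to 14.40 in the DMSO arrays. One that was lower was Mcam, for CD146, a protein by which the paper also stained endogenous rTSPCs in injured tendon. Mcam had 6.33 and 6.29 in the POG arrays, against 12.86, 12.89 and 13.06 in the DMSO arrays (difference −6.63, limma adjusted p = 1.17e-08). Of 8 endothelial markers 2 were measured, 1 higher (Kdr, with a dim DMSO mean) and 1 lower (Cd34, with a dim POG mean). Their list means were 5.48 to 5.86 in the POG arrays and 5.26 to 5.65 in the DMSO arrays. The 1 measured skeletal muscle marker of 8, Acta1, was lower, with a dim POG mean. The part of these cell type markers in the Igf1 and Irs2 differences was not tested.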

How the data were processed

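RNA from P12 rTSPCs was hybridised to Affymetrix rat arrays, and those analysed here were 2 for POG and 3 for DMSO. The paper gives n = 3 for its P12 expression heatmap, and the sources used here do not explain the difference. The authors deposited 1 log2 value for each probe set and array. Per the submitters' processing notes these come from RMA (no version), in its usual form a procedure of background correction, quantile normalization and median polish over probes. The methods also name global scaling as the normalization, and which normalization gave these values was not settled. A further deposited table held the same values (largest difference 0). Neither a genome build nor the choice of the 10141 probe sets is explained (not given in the sources used here). Whether the platform annotation is of the array design that the methods name was not settled, since the names differ. The annotation gave 1 symbol for 7240 probe sets (7235 genes) and none for 2901, and all 7240 symbols were found in a current rat gene table (GRCr8, used for names only). Log2 values are relative signals, so the probe sets were compared between groups and not with one another, and the small number of arrays limits the precision.

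Groups came from the sample labels. Each probe set was compared with limma 3.58.1 in R 4.3.3 (moderated two-sided test of log2 signal, POG minus DMSO, Benjamini-Hochberg adjustment over all 10141 probe sets, threshold 0.05). The procedure was tested on simulated data in which all probe sets shared a variance and far fewer changed than here. That simulation therefore does not cover the setting of these data. Exact permutation tests were run for single values. The genes named were Igf1, Irs2, all other symbols that start with Igf, all members of the receptor and adaptor lists, up to 6 members of each other pathway list that passed with the smallest p, and the 5 nearest profiles to each of Igf1 and Irs2. Markers, genes with no probe set, and Pik3cb and Stat5a, which did not pass, were named outside this rule after their values were seen. The members, lists and tests were chosen with earlier results of these data known. No gene of the pathway or marker lists had several probe sets, so no choice among probe sets was needed for them. Alternatives were the further table, quantile normalization, median centring, the probe sets brighter than the median, trended and robust moderation, array weights, the replicate number as a block, the methods' t-test, leaving out each array and the thresholds of the methods (unadjusted p under 0.05 and fold over 1.5).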

Additional observations from a re-analysis of the deposited data

How the results depend on the processing

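Igf1 and Irs2 kept their direction and their side of the threshold under every alternative run, between 4.39 and 4.63 for Igf1 (limma adjusted p at most 2.10e-05) and between −1.47 and −1.32 for Irs2 (at most 0.00357). The methods' t-test gave them adjusted p of 0.00681 and 0.0136. Of 54 genes named by the rule for named genes, 48 passed the test. Of these, 33 passed under every setting that gave them a value, 15 lost the call under at least 1, and none changed direction. By the methods' t-test alone, Sh2b2, Pik3r2, Foxo1 and Gadd45a lost theirs (adjusted p 0.0582, 0.0736, 0.0507 and 0.0595). None of the 6 others passed under any setting. Irs1 and Gab1, which did not pass, changed sign. Irs1 was −0.046 with quantile normalization, −0.0467 with median centring, −0.065 with the replicate block and −0.09 to 0.17 when single arrays were left out, and Gab1 was −0.10, −0.0083 and −0.08 to 0.22 with quantile normalization, centring and left-out arrays. The cause was not tested. Of all probe sets, 2078 changed by the methods' t-test, and 2900 (without POG replicate 2) to 4347 (without DMSO replicate 1) when 1 array was left out, against 4694. Among the 5071 probe sets brighter than the median, 2894 changed, as did 4 of 4 other symbols that start with Igf and 29 of 38 pathway genes, because fewer were tested there, and the dimmer named genes had no value. By the methods' t-test 27 of 67 pathway genes changed, against 46. With the replicate number as a block, 4193 probe sets and 43 pathway genes changed. Same-numbered arrays did not deviate together (correlations 0.0042 and 0.0052), so the numbers were not taken as pairs. In a fit over the 7235 named genes, each gene's probe sets averaged, 47 pathway genes changed, none of which had more than 1 probe set. The further table changed nothing.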
